A study of Anguilla japonica with 6 samples.

Results

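Rab GTPases are small membrane-bound switches that give each compartment of the cell its identity and steer vesicles between compartments. A Rab is loaded with GTP by a guanine nucleotide exchange factor (GEF), is shut off by a GTPase-activating protein (GAP), and in its GTP-bound form recruits effectors such as motors and tethers. An escort protein presents new Rabs for prenylation, the lipid tail that anchors them. In endocrine cells such as those of the pituitary, Rabs of the Rab3 and Rab27 subfamilies sit on hormone granules and act in their docking and release, while others serve the Golgi, where granules form, and the endosomes, where membrane is retrieved. The roles given below are known mainly from human and mouse cells.

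The members were chosen by gene symbol, with patterns for numbered Rabs, Rab effectors, DENN domain (dennd), rabgef and rin GEFs, TBC domain (tbc1d), rabgap and rab3gap GAPs, and proteins that carry Rabs, such as the product of the escort gene chm. They number 107 of 32359 genes in the table. They comprise 42 Rab GTPase genes, 8 effector genes and 49 regulator genes, among them 19 GEF genes, 28 GAP genes and chm. The other 8 matched by name alone: 7 chmp genes, which encode ESCRT-III proteins of membrane scission and no Rab regulator, were taken in by the chm pattern, and rab5if is named for an interaction with Rab5. All roles were assigned by symbol. A GAP gene here is any with a tbc1d, rabgap or rab3gap symbol, whether or not its product has GAP activity. Genes listed under a LOC identifier (16895) could not be matched, and no symbol of rab1, rab2, rab3a, rab10, rab26 or rab37 was among the members, so these Rabs are not analysed here.

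The RNA came from pituitaries of female Japanese eels (Anguilla japonica), sequenced as bulk libraries. The age label places 3 libraries in a matured and 3 in a pre-matured group; no other agent, allele, batch or age is given, nor whether maturation was natural or induced. Nothing in the labels says how many animals were used, so the p-values measure the spread between these libraries, which may be technical. Values are in FPKM, which divides the reads of a gene by its length and by the depth of the library, and whole reads rebuilt from them gave 16033675 to 19619964 reads per library.

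The labelled tissue was checked against its markers. Of 8 names of pituitary hormone genes 6 were in the table, and their summed level was 17098 to 43336 FPKM in matured and 3113 to 3241 FPKM in pre-matured libraries, with gh1 and lhb higher among 5 tested. Of 6 red blood cell names 1 was present, alas2, which was lower in matured libraries (2.39 to 3.40 against 7.12 to 76.6 FPKM). Of 6 leukocyte markers present 1, csf1ra, was higher, with sums of 568 to 702 against 537 to 1003 FPKM. No marker of endothelium (5 tested, sums of 8.13 to 11.8 against 6.31 to 10.8 FPKM), fibroblasts (4 tested, 66.5 to 131 against 47.0 to 79.8 FPKM) or neurons and glia (3 tested, 84.6 to 108 against 85.2 to 256 FPKM) passed. No marker present was at 0 in all libraries; neither name of the folliculostellate list was in the table. In bulk tissue, fewer cells of a type and less RNA per cell cannot be told apart, and the part of cell makeup in the results below was not tested.

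Of the members that passed the test with FPKM as deposited, 90.6% were higher in matured pituitaries. Over all genes that passed, 70.0% were higher. Both shares moved with the scaling, and both are given below. Of the 107 members, 100 had at least 1 FPKM in at least 3 libraries and were tested. In matured pituitaries 29 were higher, where 23.4% of all 17887 genes tested were, and 3 were lower, where 10% of all genes were; 33.4% of all genes passed in either direction (limma on log2(FPKM + 1), Benjamini-Hochberg adjusted p under 0.05). The 3 lower ones were rab3c, rab5ab and the GAP subunit gene rab3gap2. In all 32 called members the groups did not overlap. This uses the same values as the calls and is no further support for them, and the share over all called genes is not given here. Every matured library was above every pre-matured one for 46 members (33.3% of all genes) and below for 9 (15.9% of all genes), so that the groups of 55 members did not overlap, where 49.2% of all genes had none. The median log2 fold change was 0.47 over the members tested and 0.23 over all genes. It was 0.51 over the 39 Rab GTPase genes tested but 0.17, below that of all genes, over the 47 regulators tested. Of these regulators 13 were higher (27.7%) and 1 was lower (2.13%). The 7 members below the filter were rab5b and rabepk, listed at 0 in every library, and rab38a, rab42b, rin3, chmp2a and tbc1d22b, whose highest value in any library was 1.77 FPKM (tbc1d22b, matured 1).

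How many calls pointed up or down moved with the scaling. Over all genes 31.3% were higher and 5.08% lower with TPM, 17.9% and 15.4% with median-ratio scaling, 16.3% and 16.2% with quantile normalization, 16.4% and 14.3% with voom on rebuilt reads, and 16.4% and 15.8% with a length trend removed. With 1 library left out 15.1% to 21.9% of all genes were higher and 5.88% to 9.29% lower. Counts by role and setting below are set against these shares. Of member calls 90.6% were higher with FPKM as deposited (70.0% of the calls over all genes), 95.7% with TPM (44 higher and 2 lower), 75.7% with median-ratio scaling (28 and 9), 78.1% with quantile normalization (25 and 7), 69.7% with voom on rebuilt reads (23 and 10) and 68.6% with a length trend removed (24 and 11). Of the calls over all genes 86.0% were higher with TPM, 53.7% with median-ratio scaling and 50.1% with quantile normalization. With voom the share over all genes was 53.5%, and with a length trend removed 50.9%. The median of all genes moved to 0.53 with TPM and to 0.02, -0.02, 0.04 and -0.01 under the other settings. Relative to that median the members' median was 0.24 as deposited and 0.27, 0.25, 0.20, 0.27 and 0.19 in that order. Of the 29 higher members 20 kept their call with TPM, median-ratio scaling, quantile normalization and voom alike, and of the 3 lower members rab3c and rab3gap2 did.

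**Figure D1:**
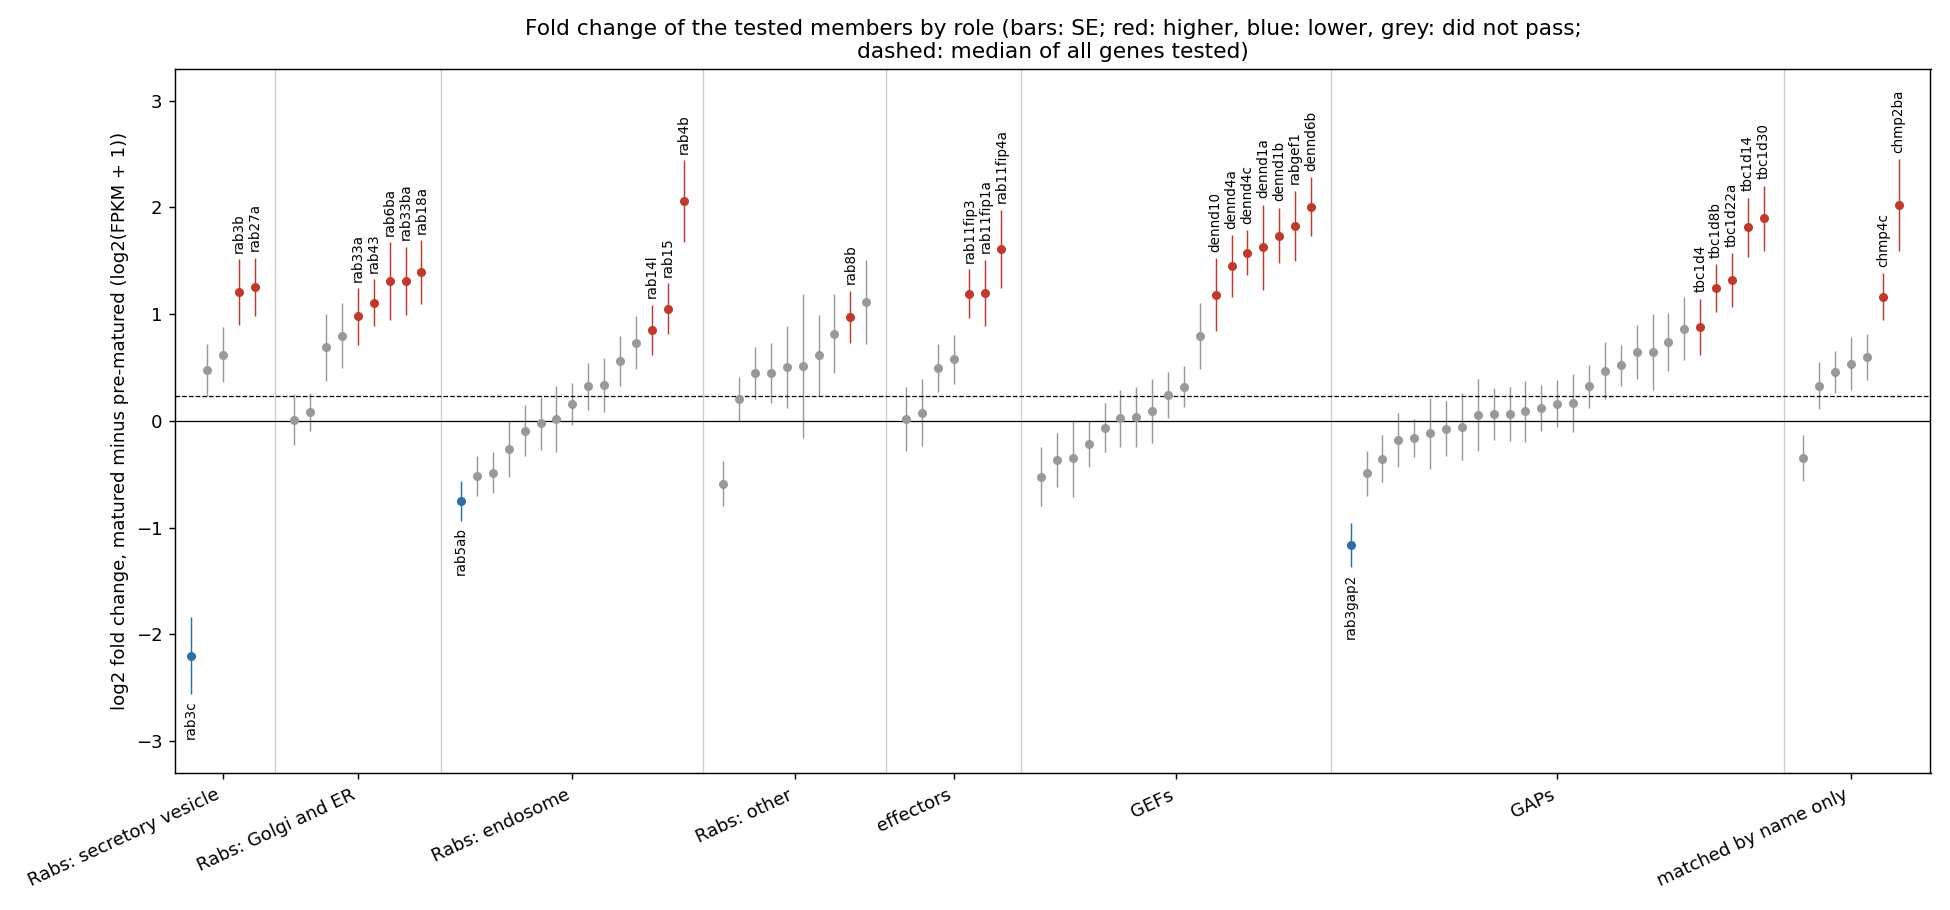
Log2 fold change (matured minus pre-matured, log2(FPKM + 1)) of the tested Rab, effector, GEF and GAP genes and genes matched by name only, ordered within each role, with SE bars; red members were higher, blue lower and grey did not pass, and the dashed line is the median of all genes, 0.23. The 3 lower members are rab3c, rab5ab and rab3gap2, and higher ones stand in every role drawn.

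Among Rabs of secretory vesicles, the genes went opposite ways. Of 5 tested, 2 were higher, 1 was lower and 2 did not pass, where 23.4% of all genes were higher and 10% lower. Without any 1 matured library 1 was higher, where 15.1% to 17.0% of all genes were. Rab3c, which encodes a Rab3 of synaptic and secretory vesicles, stood at 9.27, 20.5 and 8.63 FPKM in the matured group (libraries 1, 2 and 3, the order used throughout) and at 65.8, 75.3 and 39.6 FPKM in the pre-matured group. Every matured library was below every pre-matured one, and the mean was 4.70-fold lower (12.8 ± 6.70 against 60.2 ± 18.5 FPKM, SD, n = 3; log2 fold change -2.20 ± 0.36 SE, limma adjusted p = 0.00359). Rab3c had the largest fall of the members tested, with 170 to 488 reads in matured and 874 to 1697 in pre-matured libraries. Its call was kept in every alternative that was run, with log2 fold changes no nearer to 0 than -1.92.

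Rab3b, the gene of another Rab3, stood at 7.44, 8.50 and 8.06 FPKM in the matured group and 1.5, 4.26 and 3.53 FPKM in the pre-matured group. It rose with a log2 fold change of 1.20 ± 0.31 (SE; limma adjusted p = 0.0189), a call that was lost without any 1 of the matured libraries. Rab3db was at 6.01, 4.87 and 7.44 against 3.56, 3.94 and 4.75 FPKM and did not pass (limma adjusted p = 0.166), although its groups did not overlap. Rab27a, whose product docks granules at the plasma membrane, stood at 16.0, 28.9 and 15.3 FPKM in the matured group and 7.27, 8.65 and 6.68 FPKM in the pre-matured group. Matured 2 was the highest of these, and the difference was 1.26 ± 0.27 on the log2 scale (SE; limma adjusted p = 0.0101), kept in every alternative run. Its paralog rab27b, at 8.13, 9.40 and 7.49 against 3.46, 5.85 and 6.26 FPKM, did not pass (limma adjusted p = 0.0961) except with TPM.

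The balance among the 3 rab3 genes with a symbol, rab3b, rab3c and rab3db, can be read within each library; other rab3 genes, such as rab3a, are not analysed here. Summed over these 3 genes the level was 22.7, 33.9 and 24.1 FPKM in the matured group and 70.8, 83.5 and 47.9 FPKM in the pre-matured group. Rab3c held 40.8%, 60.6% and 35.8% of that sum in matured and 92.9%, 90.2% and 82.7% in pre-matured libraries. These shares were computed after the genes' values were seen and are a description with no test. They do not change with a single scaling factor per library. Quantile normalization or removal of a length trend can change them, and the shares were not computed under these. Rab3c is the shortest of the 3 genes, at 1211 bases against 2740 for rab3b and 3516 for rab3db.

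**Figure D2:**
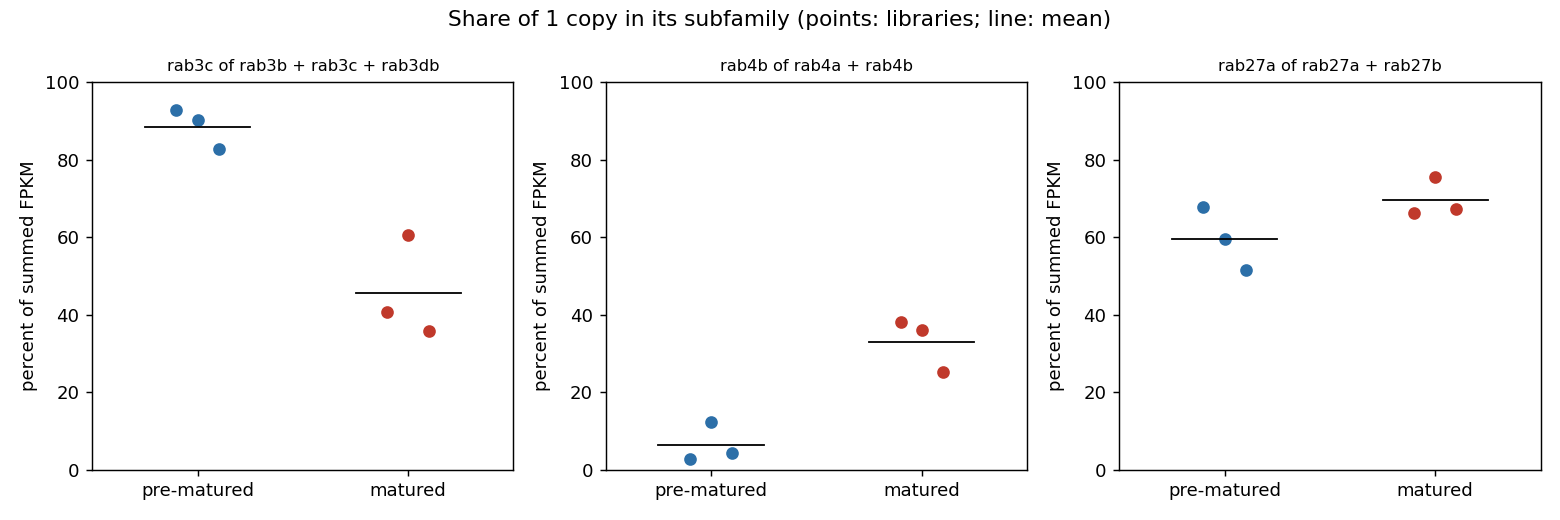
Share of the summed FPKM (percent, axis from 0 to 100) held by rab3c among the 3 rab3 genes with a symbol, rab4b among rab4a and rab4b, and rab27a among rab27a and rab27b, with 1 point per library and a line at the mean. The rab3c points of matured libraries (35.8% to 60.6%) lie below those of pre-matured ones (82.7% to 92.9%), the rab4b points lie above, and the rab27a points overlap.

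Rabs of the Golgi and the endoplasmic reticulum (ER) included 5 of 9 that were higher and 0 lower, where 23.4% of all genes were higher. Without matured 2, matured 3 or pre-matured 1, 3 of the 9 were higher, where 15.6%, 17.0% and 17.8% of all genes were. Rab43, which acts at the Golgi, stood at 8.92, 7.60 and 10.2 FPKM in the matured group and 3.51, 3.44 and 3.80 FPKM in the pre-matured group (log2 fold change 1.10 ± 0.22 SE, limma adjusted p = 0.00711). Its pre-matured libraries lay close together, and its call was lost only with voom (adjusted p = 0.0581). Rab18a, of the ER and lipid droplets, stood at 12.2, 25.4 and 15.4 FPKM against 6.03, 7.13 and 4.51 FPKM, again highest in matured 2 (log2 fold change 1.40 ± 0.30 SE, limma adjusted p = 0.00920), and kept its call in every alternative run. Rab33ba and rab33a encode Golgi Rabs with a role in autophagosome formation. Rab33ba was at 7.22, 9.79 and 8.28 against 1.40, 3.47 and 4.02 FPKM (limma adjusted p = 0.0152, lost without matured 2). Rab33a was at 9.97, 9.07 and 7.92 against 2.79, 4.08 and 5.69 FPKM (limma adjusted p = 0.0235), a call lost without any 1 of the matured libraries or pre-matured 1, with quantile normalization and with a length trend removed.

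The 2 Rab6 genes, which act in transport within and out of the Golgi, differed greatly in level. Rab6a was the most abundant Rab GTPase gene of the members, at 164, 66.7 and 92.2 FPKM in the matured group and 52.3, 58.4 and 61.3 FPKM in the pre-matured group. The groups did not overlap, but matured 1 stood far above the other two, and the gene did not pass (log2 fold change 0.80 ± 0.31 SE, limma adjusted p = 0.0760); it passed without matured 2 and with TPM. Rab6ba stood at 7.16, 11.2 and 8.66 FPKM against 1.48, 5.53 and 2.90 FPKM and rose (log2 fold change 1.31 ± 0.36 SE, limma adjusted p = 0.0253). That call was lost without matured 2, matured 3, pre-matured 1 or pre-matured 3 and with no filter. Of the other Golgi Rabs, rab36, rab41 and rab30 did not pass (limma adjusted p = 0.122, 0.737 and 0.977), the last 2 at means of 25.1 and 15.9 FPKM over all libraries.

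**Figure D3:**
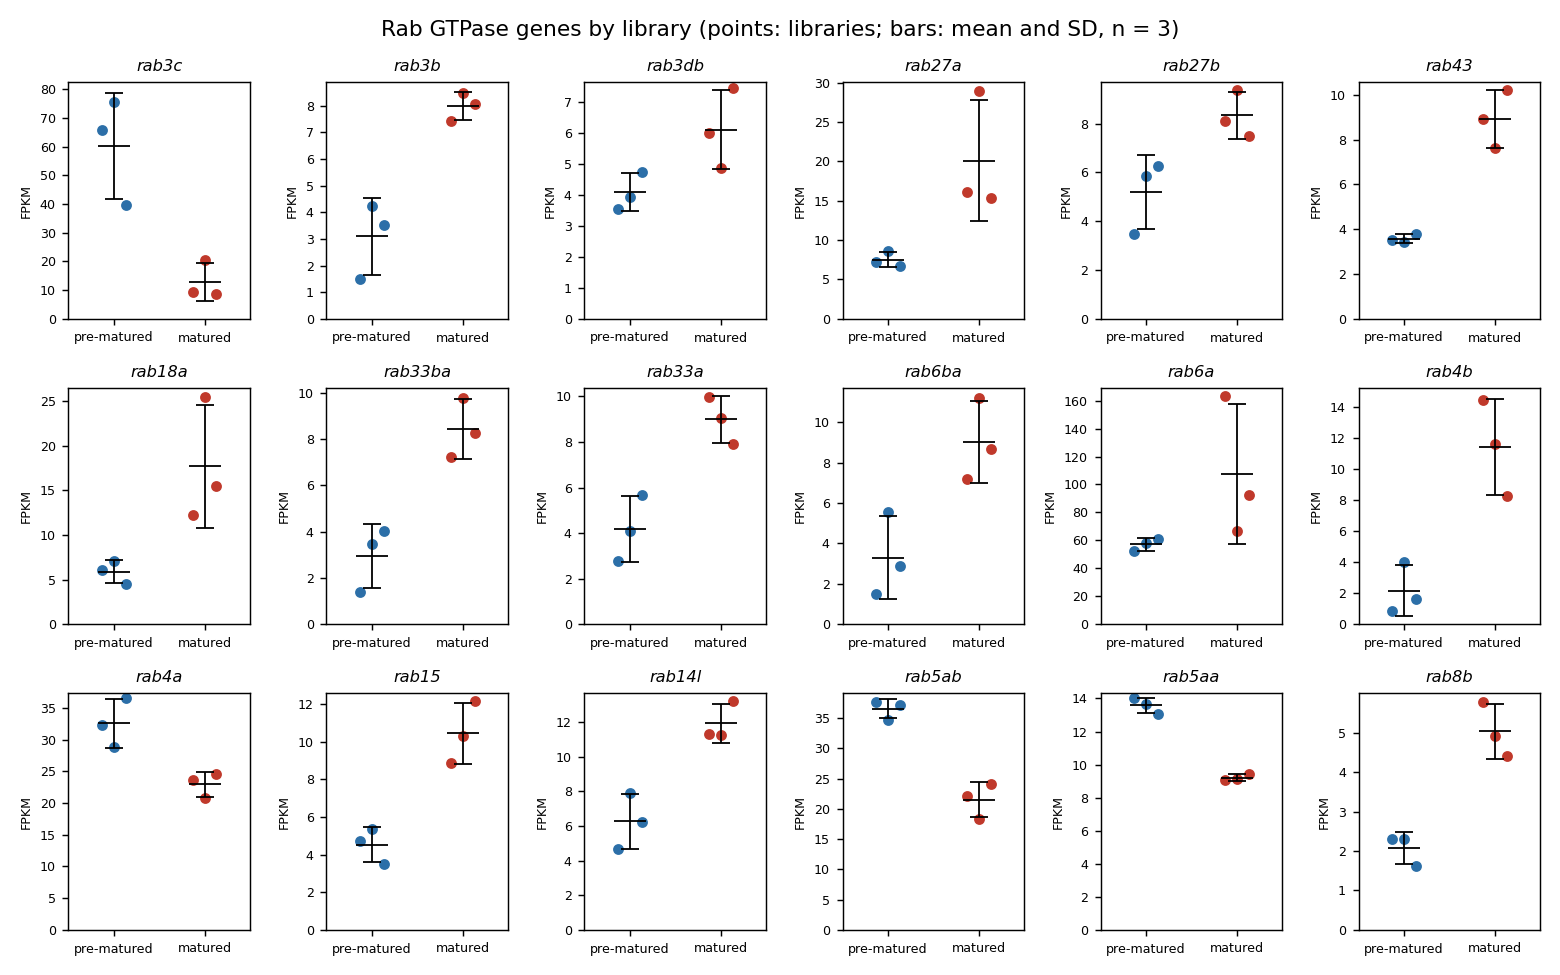
FPKM of 18 Rab GTPase genes in each library (linear axes from 0), pre-matured in blue and matured in red, with bars for the mean and SD (n = 3 per group). Rab3c falls from 60.2 to 12.8 FPKM while rab3b, rab27a and the Golgi genes rab43 and rab18a lie higher in every matured library; in rab6a 1 matured library lies far above the others.

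Endosomal Rabs split. Of 15 tested, 3 were higher (20.0%, with 23.4% over all genes), 1 was lower (6.67%, with 10% over all genes) and 11 did not pass. With voom 1 was higher and 3 were lower, where 16.4% and 14.3% of all genes were. With median-ratio scaling the counts were 3 and 3 (17.9% and 15.4% over all genes). They were 3 and 2 with quantile normalization (16.3% and 16.2%) and with a length trend removed (16.4% and 15.8%). With TPM they were 5 and 0 (31.3% and 5.08%). Without matured 3, 1 was higher (17% over all genes). Without matured 1 or matured 2, 0 were lower (5.88% and 7.32% over all genes). Rab4b, of rapid recycling to the plasma membrane, had the largest rise of all members tested on the log2(FPKM + 1) scale. Its level went from 0.889, 4.01 and 1.64 FPKM in pre-matured to 14.5, 11.7 and 8.25 FPKM in matured libraries (log2 fold change 2.06 ± 0.38 SE, limma adjusted p = 0.00536). In the ratio of mean FPKM, 5.26 for rab4b, other tested members stood above it, such as chmp2ba (8.78) and dennd6b (5.87). The call of rab4b was made on the log2 scale. Rab4b, like rab43, rab33ba and rab3b, reached 5 FPKM in matured libraries only. These genes passed a filter of 5 FPKM through the group where they are high, so that alternative is no further support. The call of rab4b rested on 23, 100 and 40 reads in pre-matured libraries and was kept in every alternative run. Its paralog rab4a lay the other way, at 23.5, 20.7 and 24.5 FPKM in the matured group and 32.3, 28.8 and 36.5 FPKM in the pre-matured group, and did not pass (limma adjusted p = 0.0785) except with median-ratio scaling and voom. Rab4b thus held 38.0%, 36.0% and 25.2% of the summed level of rab4a and rab4b in matured against 2.68%, 12.2% and 4.29% in pre-matured libraries.

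Rab15 and rab14l, which encode Rabs of early and recycling endosomes and of Golgi to endosome transport, were higher. Rab15 was at 8.89, 10.3 and 12.1 FPKM in the matured group and 4.74, 5.35 and 3.51 FPKM in the pre-matured group (limma adjusted p = 0.0116, lost without matured 3 and with voom). Rab14l was at 11.3, 11.2 and 13.2 against 4.69, 7.88 and 6.22 FPKM (limma adjusted p = 0.0249), a call lost without any 1 library other than pre-matured 2 and with voom.

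Rab5 sets up early endosomes, and no rab5 gene was higher. Rab5ab stood at 22.0, 18.3 and 24.0 FPKM in the matured group and 37.7, 34.7 and 37.1 FPKM in the pre-matured group, a mean 1.70-fold lower (log2 fold change -0.75 ± 0.19 SE, limma adjusted p = 0.0172). This call was lost with TPM (adjusted p = 0.135) and without matured 1 or matured 2. Rab5aa was at 9.05, 9.10 and 9.43 against 14.0, 13.6 and 13.1 FPKM and did not pass (limma adjusted p = 0.0632), but was lower with median-ratio scaling, quantile normalization, voom and a length trend removed (adjusted p = 0.0195, 0.0192, 0.0308 and 0.0300). Rab5c stood at 24.3, 24.8 and 24.6 against 21.8, 22.3 and 37.2 FPKM, with pre-matured 3 above the rest (limma adjusted p = 0.790). Reads of near-identical copies such as the rab5 genes may be split between them, and the sources used here do not say how such reads were counted.

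The late endosome genes rab7b and rab7a were the most abundant Rabs after rab6a. Rab7b stood at 66.7, 68.7 and 69.3 FPKM in the matured group and 46.4, 46.8 and 73.4 FPKM in the pre-matured group, so the groups overlapped through pre-matured 3 (limma adjusted p = 0.286). Rab7a stood at 49.5, 49.8 and 54.5 against 37.6, 47.7 and 53.4 FPKM (limma adjusted p = 0.564). The recycling endosome gene rab11a was at 35.0, 19.7 and 27.3 FPKM against 13.3, 17.0 and 16.9 FPKM, at the edge of the threshold (log2 fold change 0.73 ± 0.25 SE, limma adjusted p = 0.0501), and passed with TPM, with a filter of 5 FPKM and without matured 2. Rab11al, at 9.39, 9.08 and 6.31 against 5.46, 5.35 and 4.81 FPKM, did not pass (limma adjusted p = 0.0940) except with TPM. The endosomal members rab9b, rab20, rab22a and rab35b had log2 fold changes of -0.02, 0.02, 0.34 and -0.26, and none passed.

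Of 10 other Rabs tested 1 was higher (10%, with 23.4% over all genes) and 0 lower (10% over all genes). Rab8b, of transport from the Golgi to the plasma membrane and the cilium, stood at 5.79, 4.90 and 4.41 FPKM in the matured group and 2.31, 2.30 and 1.62 FPKM in the pre-matured group (log2 fold change 0.97 ± 0.25 SE, limma adjusted p = 0.0177), a call lost without matured 1 or 2, with quantile normalization and with a length trend removed; with a filter of 5 FPKM it was not tested. With TPM, without pre-matured 2 and without pre-matured 3, 2 of the 10 were higher, where 31.3%, 21.9% and 20.8% of all genes were. The 9 that did not pass ran from a log2 fold change of -0.59 (rab39bb) to 1.11 (rab24, limma adjusted p = 0.0577). Rab39bb stood at 10.4, 7.81 and 9.86 against 16.6, 12.5 and 14.6 FPKM. It did not pass (limma adjusted p = 0.0640), but was lower with median-ratio scaling, quantile normalization, voom and a length trend removed (adjusted p between 0.0201 and 0.0344). Over all Rab GTPase genes 11 of 39 tested were higher (28.2%, near the 23.4% of all genes) and 2 lower (5.13%, with 10% over all genes). Without matured 1, 2 or 3, 7, 7 and 6 of the 39 were higher, where 15.1%, 15.6% and 17.0% of all genes were, and without matured 1 or 2, 1 was lower.

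Rab11 family interacting proteins, which tie Rab11 to motors, made up all 3 of the higher effectors among 7 tested: 3 of their 5 genes were higher and 0 lower, where 23.4% and 10% of all genes were. Rab11fip3 stood at 20.0, 19.3 and 17.7 FPKM in the matured group and 5.67, 8.71 and 9.32 FPKM in the pre-matured group (log2 fold change 1.19 ± 0.23 SE, limma adjusted p = 0.00637). Rab11fip4a was at 4.80, 5.60 and 8.56 against 1.30, 0.539 and 2.61 FPKM (log2 fold change 1.61 ± 0.36 SE, limma adjusted p = 0.0115). Both kept their call in every alternative that tested them. Rab11fip1a was at 33.6, 69.3 and 29.1 against 17.4, 17.1 and 17.2 FPKM: the pre-matured libraries hardly differed and matured 2 stood far above all others (log2 fold change 1.20 ± 0.31 SE, limma adjusted p = 0.0193, lost without pre-matured 1 or 3 and with a length trend removed). Its copy rab11fip1b, at 3.08, 4.31 and 2.88 against 3.16, 1.93 and 4.89 FPKM, did not pass (limma adjusted p = 0.873), nor did rab11fip5a. The Rab5 effectors rabep1 and rabep2 had log2 fold changes of 0.57 and 0.02 and did not pass, although rabep1 did with TPM and without pre-matured 1.

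Among GEFs 7 of 18 tested were higher (38.9%, with 23.4% over all genes) and 0 lower (10% over all genes). With median-ratio scaling, voom and a length trend removed 1, 2 and 3 were lower, where 15.4%, 14.3% and 15.8% of all genes were. With a filter of 5 FPKM 4 of 13 tested were higher, where 25.2% of all genes were. These 4, dennd4c, dennd6b, dennd1b and dennd10, reached 5 FPKM in matured libraries only. They passed that filter through the group where they are high, so this count is no further support. The higher ones were 6 of 13 dennd genes and rabgef1. Dennd4c, whose product activates Rab10, stood at 11.0, 12.8 and 10.9 FPKM in the matured group and 3.07, 3.46 and 3.10 FPKM in the pre-matured group (log2 fold change 1.57 ± 0.21 SE, limma adjusted p = 0.00184). It had the smallest p of the members, with libraries of a group close together. Dennd6b, of a family that activates Rab14, was at 14.4, 7.79 and 9.33 against 1.85, 1.5 and 2.02 FPKM, 5.87-fold higher in the mean (log2 fold change 2.01 ± 0.27 SE, limma adjusted p = 0.00201). Dennd1b and dennd1a encode activators of Rab35. Dennd1b was at 5.91, 8.07 and 6.27 against 1.02, 1.18 and 1.8 FPKM (log2 fold change 1.74 ± 0.26 SE, limma adjusted p = 0.00256). Dennd1a was at 4.73, 5.60 and 4.51 against 0.0210, 1.35 and 1.96 FPKM (limma adjusted p = 0.0157), with 1 read behind the value of pre-matured 1; its call was lost with voom (adjusted p = 0.0531) and with a pseudocount of 0.1.

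Rabgef1, the gene of the Rab5 activator Rabex-5, stood at 6.16, 7.26 and 4.60 FPKM in the matured group and 0.303, 1.63 and 1.16 FPKM in the pre-matured group, with 10, 52 and 36 reads behind the pre-matured values (log2 fold change 1.83 ± 0.33 SE, limma adjusted p = 0.00476). Rabgef1 thus rose where the Rab5 gene rab5ab fell, although the call of rab5ab was lost with TPM and without matured 1 or matured 2. Rabgef1l lay the same way as rabgef1, at 4.12, 5.86 and 3.96 against 1.8, 3.66 and 1.55 FPKM, and did not pass (limma adjusted p = 0.0777) except with TPM and without pre-matured 2. The other called GEFs were dennd4a (3.40, 4.27 and 4.84 against 0.441, 1.49 and 0.863 FPKM, limma adjusted p = 0.00736) and dennd10 (6.75, 5.61 and 5.47 against 1.14, 1.63 and 4.03 FPKM, limma adjusted p = 0.0293). The call of dennd10 was lost without any 1 library other than pre-matured 3, with no filter, with quantile normalization and with a length trend removed. Rab3ip, the gene of the Rab8 activator Rabin8, was the most abundant GEF gene, at 22.1, 46.6 and 29.8 FPKM against 40.2, 53.7 and 43.5 FPKM. Its groups overlapped through matured 2 and it did not pass (limma adjusted p = 0.181), but was lower with median-ratio scaling, voom and a length trend removed (adjusted p = 0.0443, 0.0401 and 0.0455). The Rab5 activators rin1a and rin2 had log2 fold changes of -0.21 and 0.04, and neither passed. With a length trend removed rin1a was lower (limma adjusted p = 0.0481). The 11 GEF genes that did not pass ran from -0.52 (rab3ip) to 0.80 (rabgef1l) on the log2 scale.

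Of 27 GAP genes tested 5 were higher (18.5%, with 23.4% over all genes), 1 was lower (3.7%, with 10% over all genes) and 21 did not pass. With TPM 10 of 28 tested were higher and 1 lower, where 31.3% and 5.08% of all genes were. With median-ratio scaling 4 of 26 tested were higher and 2 lower (17.9% and 15.4% over all genes). The counts were also 4 and 2 with quantile normalization (16.3% and 16.2%) and with voom (16.4% and 14.3%). With a length trend removed they were 4 and 3 (16.4% and 15.8%). The 2 subunits of the Rab3 GAP complex differed. Rab3gap2, its non-catalytic subunit, stood at 7.66, 11.1 and 9.21 FPKM in the matured group and 20.0, 24.1 and 21.8 FPKM in the pre-matured group, 2.36-fold lower in the mean (log2 fold change -1.16 ± 0.21 SE, limma adjusted p = 0.00480). The call was kept in every alternative run. Rab3gap1, the catalytic subunit, was at 12.8, 18.9 and 8.58 against 10.8, 12.3 and 12.9 FPKM, with overlapping groups (log2 fold change 0.09 ± 0.28 SE, limma adjusted p = 0.832). The difference between the 2 subunits was not tested. The 21 GAP genes that did not pass ran from a log2 fold change of -0.49 (tbc1d17) to 0.86 (tbc1d13, limma adjusted p = 0.0535).

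The higher GAP genes were led by tbc1d14 and tbc1d30. Tbc1d14, whose product binds Rab11 and acts in autophagy, was at 13.4, 20.8 and 14.8 FPKM in the matured group and 3.0, 3.33 and 5.57 FPKM in the pre-matured group (log2 fold change 1.81 ± 0.28 SE, limma adjusted p = 0.00275). Tbc1d30, a GAP of the ciliary Rab8, was at 21.8, 22.7 and 17.3 against 4.98, 7.47 and 2.80 FPKM (log2 fold change 1.90 ± 0.31 SE, limma adjusted p = 0.00332). Tbc1d8b was at 18.9, 14.9 and 13.5 against 5.45, 5.65 and 7.08 FPKM, and tbc1d22a at 2.19, 3.54 and 2.26 against 0.524, 0.478 and 0.355 FPKM (limma adjusted p = 0.00467 and 0.00613). These 4 kept their call in every alternative that tested them. Tbc1d22a reached 1 FPKM in matured libraries only and so passed the filter through the group where it is high. It had 25, 22 and 16 reads in pre-matured libraries and was not tested with a filter of 5 FPKM. Tbc1d4, which acts on the Rabs of insulin-driven glucose transporter traffic, was at 9.86, 10.8 and 7.25 against 6.25, 4.09 and 3.60 FPKM (limma adjusted p = 0.0343), and lost its call in 9 alternatives. The most abundant GAP genes did not pass: tbc1d12b stood at 47.3, 31.2 and 35.0 against 28.0, 35.6 and 36.7 FPKM (limma adjusted p = 0.610) and tbc1d10c at 22.9, 23.9 and 25.5 against 24.7, 29.3 and 27.4 FPKM (limma adjusted p = 0.516). With a length trend removed tbc1d10c passed as lower (limma adjusted p = 0.0329). Tbc1d17 lay lower in matured libraries (log2 fold change -0.49, limma adjusted p = 0.107) and passed as lower with median-ratio scaling, voom and a length trend removed.

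**Figure D4:**
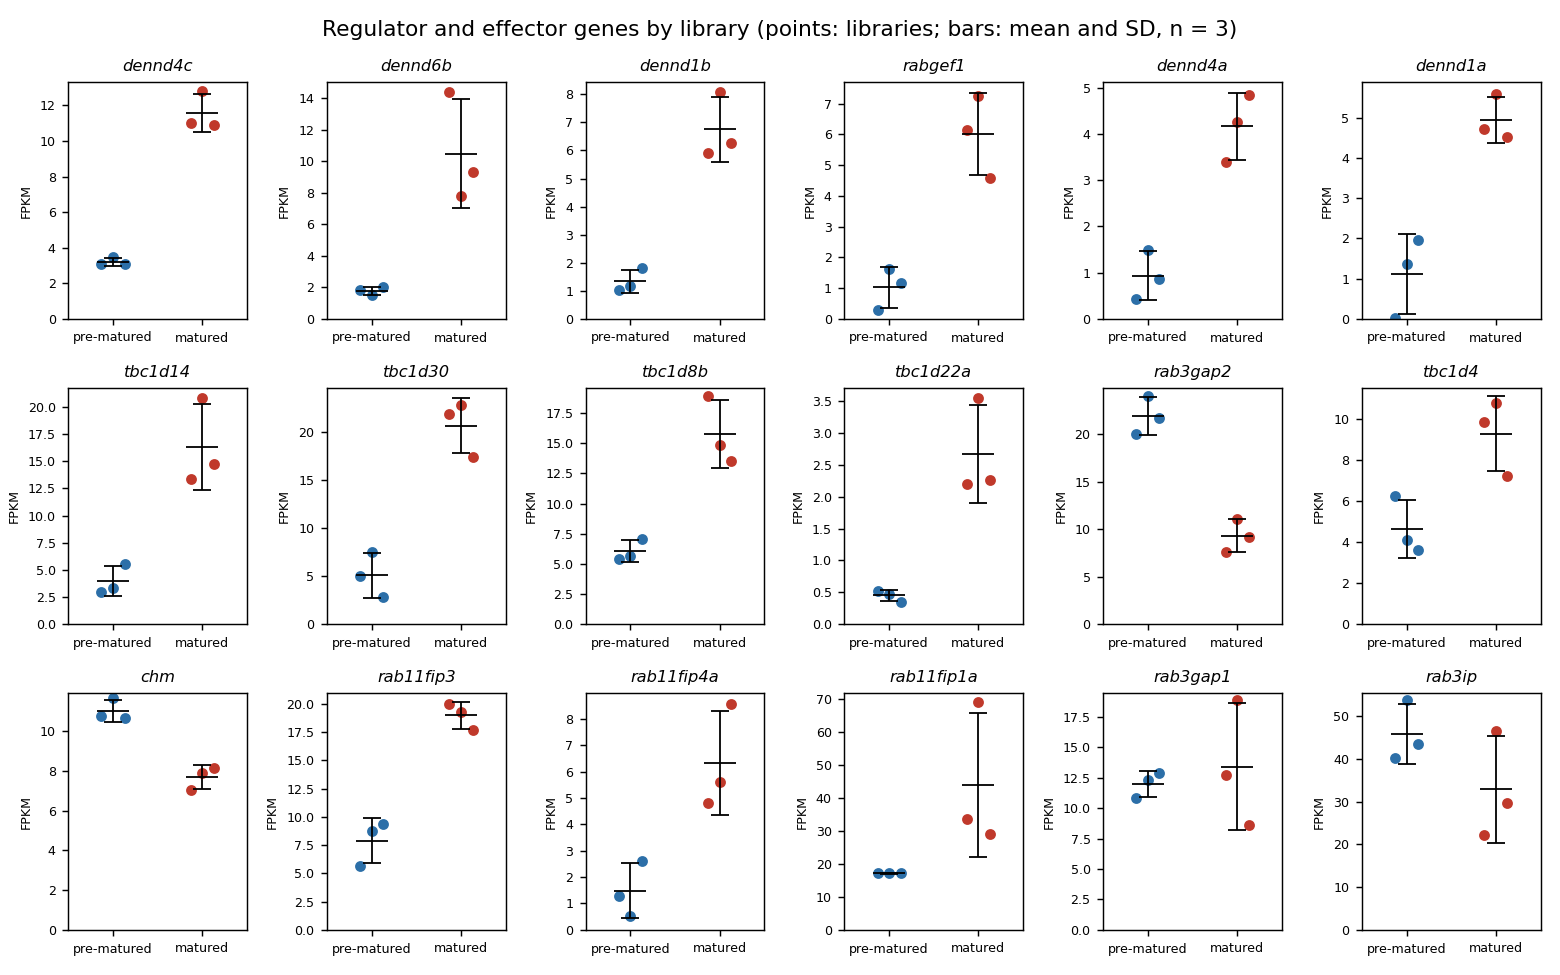
FPKM of 18 regulator and effector genes in each library (linear axes from 0), pre-matured in blue and matured in red, with bars for the mean and SD (n = 3 per group). Dennd4c, dennd6b, tbc1d14 and tbc1d30 lie higher in every matured library, rab3gap2 lies lower in every one, and rab3gap1 and rab3ip overlap.

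Chm, the Rab escort protein gene, was at 7.02, 7.89 and 8.16 against 10.8, 11.7 and 10.7 FPKM. All matured libraries were below all pre-matured ones, but it did not pass (log2 fold change -0.47 ± 0.20 SE, limma adjusted p = 0.0963); it was lower with median-ratio scaling, quantile normalization, voom and a length trend removed (adjusted p between 0.0162 and 0.0234).

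Pairs of members whose symbols differ in a last a or b were compared within each library, as the difference of log2(FPKM + 1) between the copies. Of 10 such pairs 5 had groups fully apart, at 0.1, the smallest two-sided exact permutation p that 3 against 3 libraries allow (adjusted over the pairs, 0.2), so none can pass. They were rab4, rab11fip1, rab27, dennd5 and rab5a. For rab27 and rab5a this held only with the 1 added to FPKM, and their plain FPKM ratios overlapped between groups. The rab27 difference was 0.900 in matured 1 against 0.890 in pre-matured 1. Rab27a held 66.4% of the summed FPKM of rab27a and rab27b in matured 1 and 67.7% in pre-matured 1. The shift was largest for rab4, where rab4a exceeded rab4b by 0.97 ± 0.43 in matured and 3.51 ± 0.83 in pre-matured libraries (log2, SD, n = 3). Rab11fip1a exceeded rab11fip1b by 3.26 ± 0.41 against 2.13 ± 0.50, and rab27a exceeded rab27b by 1.12 ± 0.35 against 0.49 ± 0.40. For dennd1a and dennd1b, which were both higher, the difference between copies was -0.38 ± 0.10 against -0.27 ± 0.62 (exact permutation p = 1).

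Summed over genes, the 42 Rab GTPase genes stood at 625 ± 52.2 FPKM in matured and 527 ± 42.2 FPKM in pre-matured libraries (SD, n = 3). Golgi and ER Rabs stood at 259, 173 and 184 against 107, 121 and 130 FPKM, with no overlap and with rab6a as the main part. Secretory vesicle Rabs stood at 46.9, 72.2 and 47.0 against 81.5, 98.0 and 60.9 FPKM, with matured 2 within the pre-matured range. The 8 effector genes stood at 91.5, 128 and 80.7 against 51.4, 42.7 and 52.9 FPKM. These sums follow their most abundant genes and carry no test.

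Other genes of the pathway were taken from lists of Rab effectors and regulators outside the symbol rule. Of 101 tested 27 were higher (26.7%, near the 23.4% of all genes) and 5 lower (4.95%, with 10% over all genes), with a median log2 fold change of 0.34 (0.23 over all genes). Without matured 1, 2 or 3 or pre-matured 1, 12, 13, 15 and 15 were higher (11.9%, 12.9%, 14.9% and 14.9%), where 15.1%, 15.6%, 17.0% and 17.8% of all genes were. With TPM 40 were higher and 4 lower (39.6% and 3.96%, with 31.3% and 5.08% over all genes), with median-ratio scaling 18 and 11 (17.9% and 15.4% over all genes), with quantile normalization 16 and 11 (16.3% and 16.2%), with voom 18 and 10 (16.4% and 14.3%), and with a length trend removed 14 and 13 (16.4% and 15.8%). Among other GEFs 7 of 29 were higher and 0 lower, where 23.4% and 10% of all genes were. The smallest p were those of sbf1, ric1 and trappc2l, and sbf1 stood at 18.3 ± 1.81 against 4.09 ± 1.55 FPKM (SD, n = 3, limma adjusted p = 0.00191). Sbf1 kept its call in every alternative that tested it, while ric1 lost its call with a length trend removed and trappc2l with voom. Ric1 reached 5 FPKM in matured libraries only and so passed a filter of 5 FPKM through the group where it is high. In prenylation and membrane delivery 5 of 11 were higher and 0 lower, against the same shares of 23.4% and 10%. They included yipf1 (41.3 ± 1.08 against 20.6 ± 1.75 FPKM, SD, n = 3; limma adjusted p = 0.00483), rabac1, a gene of a Rab acceptor protein (44.6 ± 15.9 against 18.1 ± 4.63 FPKM; limma adjusted p = 0.0140), both kept in every alternative, and rabggtb, the beta subunit of the enzyme that prenylates Rabs (31.5 ± 8.34 against 16.6 ± 3.19 FPKM, SD, n = 3; limma adjusted p = 0.0257), a call lost with median-ratio scaling, with voom and without matured 2, matured 3, pre-matured 2 or pre-matured 3.

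Effectors outside the members went both ways. The counts by list that follow stand against 23.4% of all genes higher and 10% lower, and no list was tested as a set. Of endosome and lysosome effectors 10 of 26 were higher and 2 lower. The Rab5 tether gene eea1 stood at 22.8 ± 2.40 FPKM in matured against 5.66 ± 0.533 FPKM in pre-matured libraries (SD, n = 3, limma adjusted p = 0.00104), kept in every alternative. Rab5ab itself was lower, a call lost with TPM and without matured 1 or matured 2, while rab5aa and rab5c did not pass. Rilp and vps11 were also higher (log2 fold change 1.45 and 1.01, limma adjusted p = 0.00727 and 0.0141). Rilp stood at 2.59 ± 0.388 against 0.359 ± 0.438 FPKM (SD, n = 3). It reached 1 FPKM in matured libraries only and so passed the filter through the group where it is high. Vps11 lost its call without matured 1 and with a length trend removed. The 2 lower ones were mical2b and micall2b (log2 fold change -1.91 and -1.83, limma adjusted p = 0.00267 and 0.00559), kept in every alternative that tested them. Micall2b reached 5 FPKM in pre-matured libraries only and so passed a filter of 5 FPKM through the group where it is high. Of secretory vesicle effectors 2 of 19 were higher, the exocyst genes exoc4 and exoc6b (limma adjusted p = 0.0122 and 0.0245; exoc4 lost its call with quantile normalization and a length trend removed, exoc6b in 7 alternatives), and 1 lower. The lower one, sytl3, of the family of synaptotagmin-like Rab27 effectors, stood at 16.4 ± 2.94 FPKM against 70.1 ± 14.0 FPKM (SD, n = 3; limma adjusted p = 0.00115), kept in every alternative, while rab27a was higher. Of Golgi effectors 2 of 9 were higher, uso1 and bicd1a (log2 fold change 1.67 and 1.19, limma adjusted p = 0.00529 and 0.00672). The 1 lower gene was golga5, a Golgi tether gene (11.7 ± 2.72 against 30.4 ± 2.06 FPKM, SD, n = 3, limma adjusted p = 0.00333). These 3 kept their call in every alternative that tested them. Uso1 reached 5 FPKM in matured libraries only and so passed a filter of 5 FPKM through the group where it is high. Of other TBC domain GAPs 1 of 7 was higher, sgsm1a, and 1 lower, sgsm3 (limma adjusted p = 0.0310 and 0.0348). The call of sgsm1a was lost without any 1 library other than pre-matured 2 and with no filter, and that of sgsm3 without matured 1, matured 2, pre-matured 1 or pre-matured 2, with TPM and with no filter.

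Of the 8 genes matched by name alone 7 were tested and 2 were higher, both chmp genes (28.6%, near the 23.4% of all genes). With TPM 5 were higher and without pre-matured 2, 3 were, where 31.3% and 21.9% of all genes were. Chmp4c was at 23.6, 37.8 and 29.1 against 11.7, 13.5 and 12.9 FPKM, and chmp2ba at 5.25, 13.8 and 3.50 against 1.20, 0.679 and 0.694 FPKM, on 6 to 11 reads in pre-matured libraries (limma adjusted p = 0.00600 and 0.00907; the latter lost with voom, adjusted p = 0.0691). Without the chmp genes 27 of 94 members were higher and 3 lower (28.7% and 3.19%, with 23.4% and 10% over all genes). The most abundant gene that matched, chmp5b, at a mean of 88.1 FPKM, did not pass (limma adjusted p = 0.102) except with TPM.

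**Figure D5:**
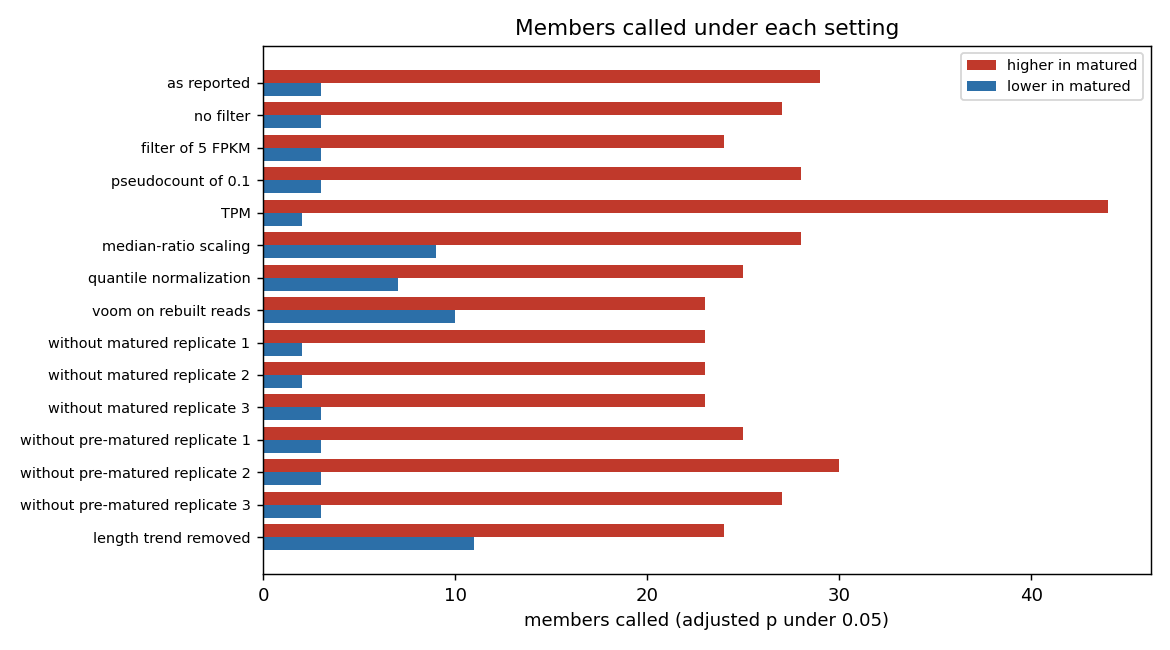
Number of members called (adjusted p under 0.05) higher (red) and lower (blue) in matured pituitaries under each setting. The higher count runs from 23 to 44 and the lower count from 2 to 11. In each setting more members are higher than lower, and so are more of all genes tested. Over all genes 23.4% were higher and 10% lower as reported, and 16.3% and 16.2% with quantile normalization.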

How the data were processed

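Per the labels' protocols, RNA was isolated with TRIzol and an NEBNext Ultra II kit gave the libraries. The submitters' processing notes list CASAVA 1.8. No aligner, counter, build or annotation is named in the sources used here. In the deposited table stands 1 FPKM value per gene and library, a unit read from the values, so the authors' normalization covers gene length and depth alone; FPKM and RPKM cannot be told apart. Ratios of the values gave whole reads, depths and gene lengths for 100% of 25782 genes above 0 in at least 2 libraries (relative tolerance 1e-10). The labels name no molecular identifiers, so read numbers speak for counting error only.

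The test took the 17887 genes that reached 1 FPKM in 3 libraries or more and ran limma 3.58.1 (R 4.3.3; lmFit, then eBayes, trended and robust) on log2(FPKM + 1), a scale that makes folds of low genes too small. Benjamini-Hochberg adjustment ran over all of them. Groups came from the age label; the numbers of libraries within a group are names in accession order and form no pairs. The fit and the rebuilding were tested on simulated data.

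Members and lists were chosen with earlier results of these data known. The full stop that ends the symbol pattern was read as punctuation; read as a wildcard it leaves 103 genes. Named in every library were up to 4 called members with the smallest p per role and direction, the main Rab subfamilies and chm, with the 5 most abundant members and up to 3 called genes per pathway list and direction named too; others were named after their values were seen. A result under that rule is not reported here. Alternatives were no filter, 5 FPKM, a pseudocount of 0.1, TPM, median-ratio scaling, quantile normalization, voom on rebuilt reads, each library left out with the tested genes kept, and, added after the data were seen, removal of each library's trend on gene length. Other steps ran in Python 3.11.15 (numpy 2.4.6, pandas 2.3.3, scipy 1.17.1, matplotlib 3.10.9).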

Additional observations from a re-analysis of the deposited data

How the results depend on the processing

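None of the 32 calls as reported changed direction under an alternative that was run. The 29 higher members numbered 44 with TPM, and 23 to 30 when 1 library was left out. The 3 lower members numbered 9 with median-ratio scaling, 7 with quantile normalization, 10 with voom and 11 with a length trend removed, an alternative chosen after the data were seen, and 2 to 3 with 1 library left out. For Rab GTPase genes the 2 lower ones became 1 with TPM, 5 with median-ratio scaling, 4 with quantile normalization, 5 with voom and 4 with a length trend removed; with 1 library left out the lower ones numbered 1 to 2 and the 11 higher ones 6 to 12. For regulators the 1 lower gene became 4, 3, 5 and 7 with median-ratio scaling, quantile normalization, voom and a length trend removed. As reported, 100 members were tested, among them 39 Rab GTPase genes and 47 regulators. Over all genes 10% were lower as reported, and 15.4%, 16.2%, 14.3% and 15.8% in those settings in that order. With TPM 31.3% of all genes were higher and 5.08% lower. With 1 library left out 15.1% to 21.9% of all genes were higher and 5.88% to 9.29% lower. The members' median log2 fold change of 0.47 became 0.34 with a filter of 5 FPKM, 0.56 with a pseudocount of 0.1, 0.80 with TPM, 0.28 with median-ratio scaling, 0.17 with quantile normalization, 0.31 with voom and 0.17 with a length trend removed, and 0.37 to 0.48 with 1 library left out. The cause of these shifts was not tested. All 29 higher and 3 lower members were compared over the alternatives that tested them: 16 and 2 kept their call in each. Some of these 16, such as rab4b, passed the filter of 5 FPKM through the matured group only. No paired analysis was possible because the labels give no replicate numbers. With 3 libraries a group, exact permutation cannot go below 0.1. Of 32 called members 7 rested on fewer than 50 reads in some library.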

Other observations

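The matured libraries did not vary alike over the 100 tested members. Matured 2 held the highest of the 3 matured values for 45 members and matured 3 the lowest for 45, while pre-matured 1 held the lowest pre-matured value for 51. Pre-matured 1 also had the lowest median-ratio size factor, 0.813, against 0.970 to 1.19 in the other libraries. Genes lower in matured pituitaries had a median length of 2076 bases and higher ones 3059 bases, over all genes tested; for the members these medians were 2724 bases over 3 and 2740 bases over 29 genes.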
